A study of Homo sapiens with 15 samples.

Results

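These genes were read in cells with an empty vector and almost not at all in cells given an activated NOTCH receptor. None of them carries a symbol from the germline, zinc-finger and other families that were left out by name. They are the 45 of 31352 gene identifiers with at least 5 CPM (reads per 1000000 counted reads of the library) in all 3 empty-vector libraries and under 0.5 CPM in all 12 NOTCH libraries. Genes whose symbols start with MAGE, GAGE, PAGE, XAGE, CTAG, SSX, ZNF, COL or LINC were left out. This step could not act on 4 of the 45 that have no symbol, so their family is not known here. Of 10350 genes at the 5 CPM minimum, 73 met both limits (0.705%). The left-out symbols took 28 of the 73, among them 10 ZNF, 5 MAGE, 3 GAGE, 3 PAGE and 3 LINC genes. Because the rule compared the NOTCH libraries with the empty-vector libraries, that difference is described here and not tested. Outside those families did not mean outside the germ line, since 10 of the 41 with a symbol are genes of germ cells or of the early embryo.

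NOTCH receptors sit in the cell membrane and release their intracellular domain (NICD) when a ligand on another cell binds them. The domain enters the nucleus, joins the DNA-binding protein RBPJ and switches on target genes such as the HES and HEY repressors. Many germline genes, and many genes of a specialised cell type, are held silent elsewhere in the body, often with methylated DNA at their promoters. Tumour cell lines express scattered members of both kinds.

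The 12 NOTCH libraries came in groups of 3, in which doxycycline switched on the intracellular domain of 1 receptor, NOTCH1 (NICD1), NOTCH2 (NICD2), NOTCH3 (NICD3) or NOTCH4 (NICD4), and the 3 control libraries came from isogenic cells with an empty vector (EV). Polyadenylated RNA was sequenced. The cell line is HCT116, a colorectal carcinoma line, in one set of labels and U373, a glioma line, in another. The source name and the genotype of NICD4 replicate 1 name NICD3, while its title and description name NICD4, where it was kept. The doxycycline dose and time are not in the labels, nor is its use in EV cells, the number of clones behind a group or the origin of the replicates, so the p-values may rest on technical spread alone. Libraries held 11630195 to 27704492 counted reads.

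The 250 bases before the start of a few genes, picked by hand, are shown as examples. They are taken from RefSeq (GRCh38.p14), run 5′ to 3′ on the gene's own strand up to the outermost listed start, and have each CpG in capitals, since CpG sites are where DNA methylation acts. FAM133A (chrX:93673956-93674205, plus strand) and CNR1 (chr6:88167350-88167599, minus strand) are shown because no NICD library held a read of either. DPPA2 (chr3:109316518-109316767, minus strand) and DPPA4 (chr3:109337547-109337796, minus strand) are neighbours on chromosome 3 that are both in the set. NDN (chr15:23687306-23687555, minus strand) is an imprinted gene, and CD3D (chr11:118342706-118342955, minus strand) is a T-cell gene.
FAM133A: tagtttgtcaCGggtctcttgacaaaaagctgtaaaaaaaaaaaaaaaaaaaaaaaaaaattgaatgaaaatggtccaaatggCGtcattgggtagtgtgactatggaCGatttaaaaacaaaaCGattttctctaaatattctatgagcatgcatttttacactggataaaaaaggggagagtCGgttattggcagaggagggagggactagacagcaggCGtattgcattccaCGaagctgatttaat
DPPA2: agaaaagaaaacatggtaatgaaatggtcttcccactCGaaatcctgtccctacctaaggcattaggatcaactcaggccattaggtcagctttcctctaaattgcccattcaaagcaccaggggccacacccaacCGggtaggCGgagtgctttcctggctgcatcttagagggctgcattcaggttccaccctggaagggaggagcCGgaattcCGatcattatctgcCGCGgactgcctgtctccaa
DPPA4: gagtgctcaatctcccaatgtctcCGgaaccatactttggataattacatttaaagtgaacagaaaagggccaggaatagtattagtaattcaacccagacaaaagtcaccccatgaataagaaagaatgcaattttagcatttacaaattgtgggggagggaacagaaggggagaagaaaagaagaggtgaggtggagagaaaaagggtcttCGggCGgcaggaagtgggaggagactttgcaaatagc
CNR1: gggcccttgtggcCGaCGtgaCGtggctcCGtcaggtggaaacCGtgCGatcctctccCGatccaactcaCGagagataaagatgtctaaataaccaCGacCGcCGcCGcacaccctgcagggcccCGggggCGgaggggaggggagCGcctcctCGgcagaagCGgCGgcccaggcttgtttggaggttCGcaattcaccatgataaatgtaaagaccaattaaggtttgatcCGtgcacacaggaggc
NDN: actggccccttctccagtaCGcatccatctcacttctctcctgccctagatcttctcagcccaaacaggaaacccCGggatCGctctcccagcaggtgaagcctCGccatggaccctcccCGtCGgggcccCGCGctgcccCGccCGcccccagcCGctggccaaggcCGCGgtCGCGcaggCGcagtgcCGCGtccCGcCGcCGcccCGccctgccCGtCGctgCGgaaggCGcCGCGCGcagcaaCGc
CD3D: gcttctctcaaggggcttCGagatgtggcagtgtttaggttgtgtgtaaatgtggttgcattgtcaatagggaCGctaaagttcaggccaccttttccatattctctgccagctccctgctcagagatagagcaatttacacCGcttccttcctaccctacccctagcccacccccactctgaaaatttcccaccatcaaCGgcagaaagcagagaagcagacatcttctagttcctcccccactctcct
The NDN stretch held 30 CpG sites and the CNR1 stretch 20, against 7 in FAM133A, 7 in DPPA2, 4 in CD3D and 3 in DPPA4. These examples do not stand for the set. NDN and CNR1 are among the only 3 of 27 protein-coding genes with a CpG-rich stretch (defined below), and the median of the 27 was 6 sites.

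Over all 45 genes, the summed level was 1.46 to 3.11 CPM in the NICD libraries, against 586, 621 and 599 CPM in the EV libraries. In counts, the 12 NICD libraries held 517 reads of these genes and the 3 EV libraries 38257. The NICD1 libraries stood at 2.04, 1.66 and 2.75 CPM, the NICD2 libraries at 1.77, 2.63 and 2.81 CPM, the NICD3 libraries at 1.85, 1.46 and 2.49 CPM, and the NICD4 libraries at 3.01, 3.11 and 3.01 CPM. All 3 NICD4 libraries were above the other 9 NICD libraries, and no NICD library reached 1% of the EV mean (0.242% to 0.516%). That order rested on CREB5, the gene with most NICD reads. Without it, NICD4 replicate 1 stood at 2.58 CPM, below NICD1 replicate 3 at 2.65 CPM. The 28 left-out genes summed to 0.742 to 1.67 CPM in the NICD libraries and 771 to 778 CPM in EV. In RNA from whole cultures, fewer cells that express a gene and less RNA per cell cannot be told apart.

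**Figure D1:**
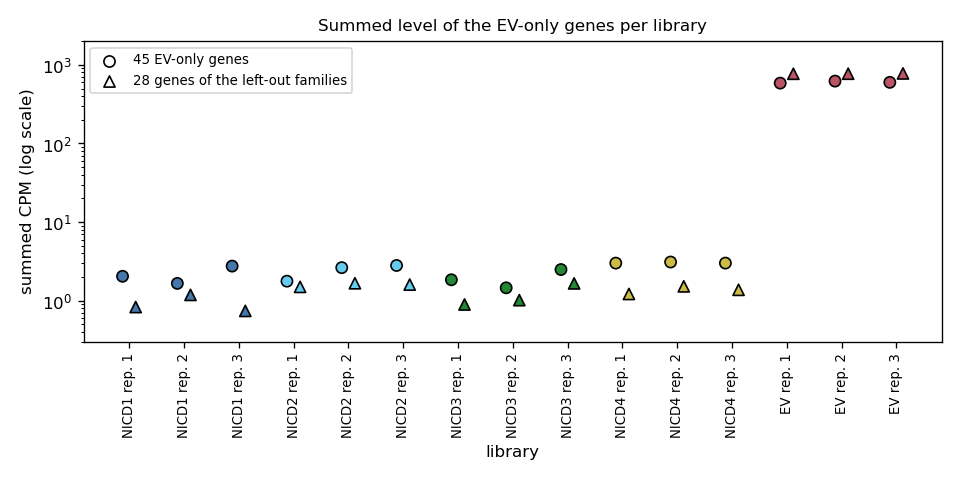
Summed level per library in CPM, on a log axis, of the 45 EV-only genes (circles) and the 28 genes of the left-out families (triangles). The circles lie between 1.46 and 3.11 in the 12 NICD libraries and between 586 and 621 in the 3 EV libraries.

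Among the EV libraries the genes were steady. The coefficient of variation over the 3 EV libraries had a median of 7.9% over the 45 genes and ranged from 1.59% to 23.2%. EV replicate 2 was the highest of the 3 for 23 genes, replicate 1 for 14 and replicate 3 for 8. Mean EV levels ran from 6.003 to 44.5 CPM with a median of 9.41 CPM. By type, 33 code for protein, 3 are lincRNAs, 2 antisense RNAs, 1 a processed transcript and 2 pseudogenes in GENCODE release 29, and 4 identifiers are not in that release and carry no symbol. Scaled for exon length, the highest EV levels were 27.8 CPM per kilobase for OVAAL, 20.6 for CACNA1C-AS2, 20.0 for TUBA3C, 18.97 for DSCR8 and 13.9 for AP001783.1. Noncoding RNAs made up 4 of the 5 highest levels per length.

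**Figure D2:**
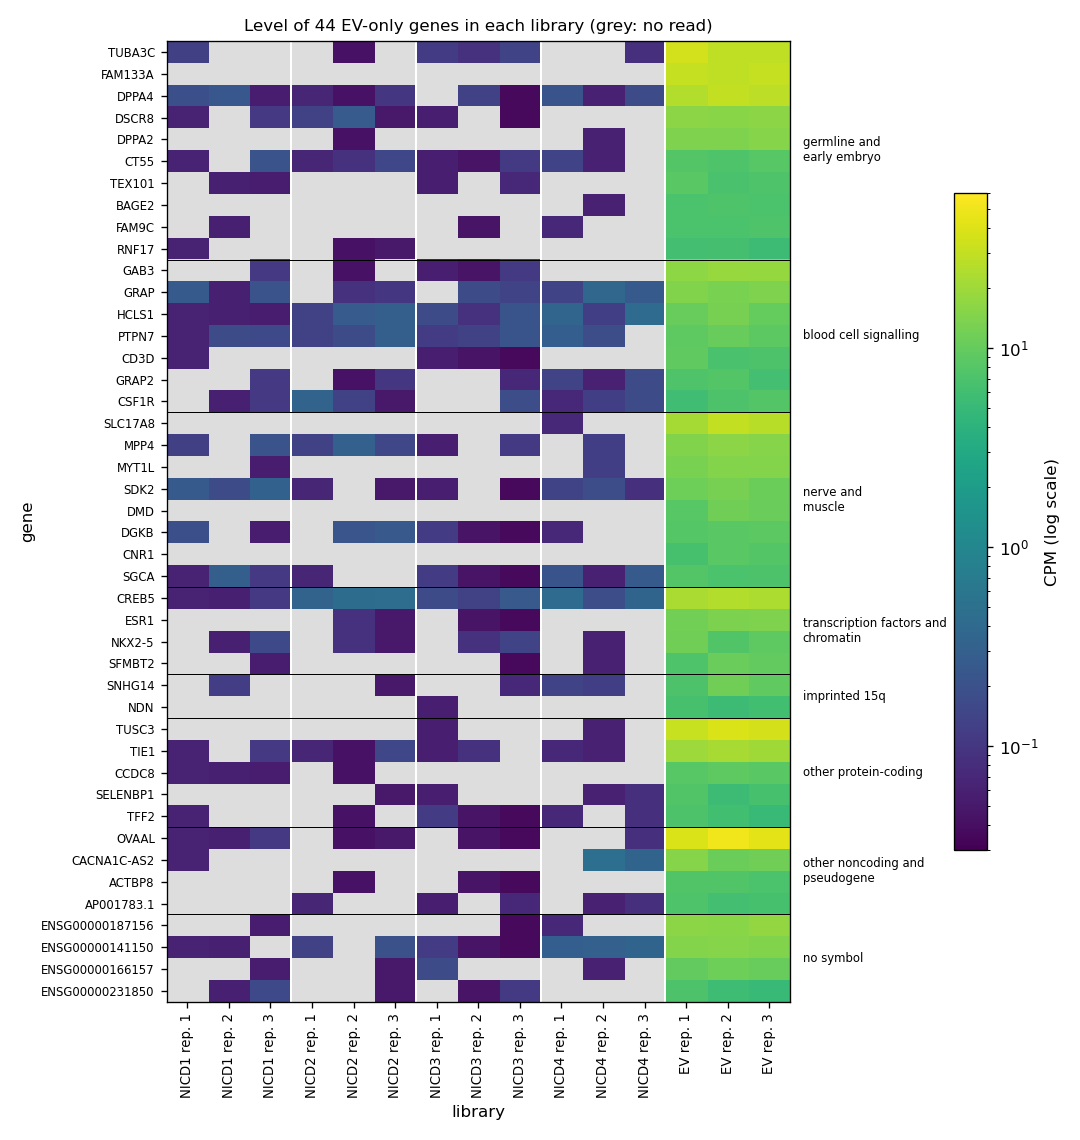
Level of 44 of the 45 genes (rows, grouped by role) in each library (columns), as CPM on a log colour scale, with grey for no read. The 3 EV columns on the right are bright throughout, between 5.05 and 50.6 CPM, and the 12 NICD columns are grey or dark, at most 0.487.

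The role groups used from here on were drawn up with the members known, and they order the description only. Genes of germ cells and the early embryo formed the largest group, with 10 members, 81 reads in the 12 NICD libraries and 9769 in EV. FAM133A, an X-linked gene of little-known function (chromosome X, 92929012 to 92967273, GRCh37), had 0 reads in each of the 12 NICD libraries, against 560, 713 and 641 reads in EV (30.7, 29.1 and 31.1 CPM). With 3 reads over the 12 NICD libraries as the floor, its pooled level was at least 2206-fold lower in NICD than in EV. Its relative on chromosome 7, FAM133B, averaged 24.96 CPM over the NICD libraries and 44.3 CPM in EV, so the near copy was read in all groups. TUBA3C, an alpha-tubulin gene of the testis (chromosome 13, 19747910 to 19755992), had 0 to 4 reads in the NICD libraries, 12 in all, against 644, 706 and 593 in EV. Reads can be split among near-identical tubulin genes, which was not tested. TUBA3D and TUBA3E held 11 and 2 reads over the EV libraries.

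DPPA2 and DPPA4 encode nuclear proteins of pluripotent cells and the early embryo that act as a pair on chromatin. DPPA4 (chromosome 3, 109044988 to 109056419) had 0 to 4 reads per NICD library, 22 in all, against 460, 722 and 579 reads in EV (25.2, 29.5 and 28.1 CPM). DPPA2 (109012635 to 109035364) had 1 read in NICD2, 1 in NICD4 and 0 in the other 10 NICD libraries, against 249, 339 and 310 reads in EV. The residual level of DPPA2 in NICD was 0.0644% of EV (exact 95% interval 0.00779% to 0.233%) and that of DPPA4 was 0.361% (0.226% to 0.549%), intervals that overlap narrowly. All such intervals cover counting error only.

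In the rest of the germline group, residual reads ran from 1 for BAGE2 to 19 for CT55. DSCR8, a noncoding RNA of the Down syndrome critical region, had 9 of its 14 NICD reads in NICD2, against 291, 379 and 327 reads in the EV libraries; its neighbour DSCR4, also a reproductive-tissue gene, averaged 0.00908 CPM in NICD and 1.52 CPM in EV. CT55, a cancer-testis antigen, had the highest residual share of this group, 1.11% of its EV level (19 NICD reads). TEX101, a germ-cell surface protein needed for sperm function in mice, had 5 NICD reads, and RNF17, a Tudor-domain protein of male germ cells in mice, had 3. FAM9C, a testis gene on the X chromosome, had 3 NICD reads, and its relative FAM9B averaged 0.0261 CPM in NICD and 3.19 CPM in EV. BAGE2, a pseudogene of a melanoma antigen family, had 1 NICD read and 454 EV reads, but it overlaps the identifier ENSG00000166157, also in the set, and reads from the shared stretch cannot be assigned to either.

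Genes of blood-cell signalling were 7 and had the largest residual share of any role group, 0.962% of EV when pooled (155 NICD reads against 4662 EV reads). HCLS1, an actin-binding substrate of the kinase LYN in blood cells (chromosome 3, 121350246 to 121379774), had 1 to 6 reads in every NICD library, against 189, 305 and 203 reads in EV. PTPN7, a phosphatase of lymphocytes, had 37 NICD reads and the highest residual share of all 45 genes, 1.79% (exact 95% interval 1.25% to 2.50%). The adaptor GRAP stood at 1.07% of EV, its relative GRAP2, which links the T-cell receptor to its signalling scaffold, 0.763%, and the adaptor GAB3 0.206%. GRAP had 14.2, 12.99 and 13.97 CPM in EV, PTPN7 8.99, 10.2 and 8.88 CPM, and GAB3 16.6, 18.5 and 17.9 CPM. CSF1R, the receptor of macrophage growth factors, had 22 NICD reads and 5.86, 7.11 and 7.86 CPM in EV. CD3D, a chain of the T-cell receptor complex, had 4 NICD reads against 9.26, 6.70 and 7.23 CPM in EV.

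Genes best known from nerve and muscle were 8, with 90 reads in NICD and 6416 in EV. SLC17A8, a vesicular glutamate transporter (chromosome 12, 100750857 to 100815808), had 1 read, in NICD4 replicate 1, against 389, 735 and 553 reads in EV, a residual share of 0.0173% that was the lowest among the 41 genes with a NICD read. DMD, which encodes the muscle protein dystrophin, had 0 reads in all 12 NICD libraries, against 153, 279 and 218 in EV, at least 749-fold lower. The cannabinoid receptor gene CNR1 also had 0, against 121, 211 and 163 reads in EV, at least 571-fold lower. In contrast, the muscle membrane gene SGCA stood at 1.26% of EV (20 NICD reads) and the brain diacylglycerol kinase gene DGKB at 1.01% (19 NICD reads). MYT1L, a neuronal transcription factor, had 3 NICD reads against 12.8, 14.7 and 14.6 CPM in EV, the retinal scaffold gene MPP4 had 24, and the synaptic adhesion gene SDK2 had 23. In EV, MPP4 had 14.1, 15.8 and 15.3 CPM, SDK2 11.1, 12.6 and 10.9 CPM, and SGCA 7.78, 6.98 and 7.18 CPM. The group held 2 of the 4 genes of the set with no NICD read and some of the 8 at 1% of EV or more.

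Transcription factor and chromatin genes were 4. CREB5, a CREB-family activator (chromosome 7, 28338940 to 28865511), had 54 reads in NICD, the most of any of the 45 genes, and 416, 619 and 490 reads in EV. ESR1, the oestrogen receptor alpha gene, had 5 NICD reads, all in NICD2 and NICD3, against 11.7, 13.3 and 13.7 CPM in EV. The cardiac factor NKX2-5 had 14 NICD reads and the polycomb-related SFMBT2 had 3. A pair of genes from the imprinted stretch of chromosome 15 also passed. NDN, which encodes necdin, had 1 NICD read against 6.58, 5.56 and 6.02 CPM in EV, and SNHG14, the long host of many small nucleolar RNAs, had 9 against 7.23, 11.6 and 9.37 CPM. SNHG14 overlaps UBE3A on the opposite strand, and UBE3A averaged 53.5 CPM in NICD and 70.4 CPM in EV. The strand setting of the counting is not given in the sources used here, so reads of such overlapping pairs may not be told apart.

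The remaining protein-coding genes were TUSC3, TIE1, CCDC8, SELENBP1 and TFF2. TUSC3, a subunit of the enzyme that puts sugar chains on new proteins (chromosome 8, 15274724 to 15624158), had 2 reads in NICD, against 583, 942 and 760 in EV (31.9, 38.5 and 36.9 CPM). TIE1, a receptor tyrosine kinase of blood vessel lining, had 13 NICD reads against 19.95, 22.01 and 20.2 CPM in EV. The gastric mucus peptide gene TFF2 had 8 NICD reads and the lowest single EV value in the set, 5.05 CPM. CCDC8, a gene linked to growth, had 4 NICD reads against 8.22, 9.07 and 8.64 CPM in EV, and SELENBP1, a selenium-binding enzyme, 4 against 7.62, 5.51 and 6.55 CPM. Among noncoding genes, OVAAL (chromosome 1, 180528112 to 180535654), a lincRNA, had 9 reads over the NICD libraries against 38.9, 50.6 and 44.0 CPM in EV. AP001783.1, an antisense RNA, had 6 NICD reads against 7.45, 6.25 and 6.55 CPM in EV. ACTBP8, a processed copy of the actin gene ACTB, had 3 NICD reads, while ACTB averaged 5285 CPM in NICD and 3717 CPM in EV. The 4 identifiers with no symbol had 43 reads in NICD and 2995 in EV, and one of them, ENSG00000187156 (chromosome 14, 106938445 to 106977000), had 3 in NICD against 16.2, 15.3 and 17.4 CPM in EV.

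Residual reads were few and unevenly spread. A gene had a median of 8 reads over the 12 NICD libraries, 15 genes had at most 3, 10 had at least 20, and 4, among them FAM133A, DMD and CNR1, had none. For the 41 genes with a read, the pooled NICD level was 0.0173% to 1.79% of the EV level, with a median of 0.304%. It was under 1% for 33 genes and 1% or more for 8, and the median of the left-out genes with a read was 0.17%. The 5 genes with most reads held 36.4% of all residual reads, and 2 genes, CREB5 and HCLS1, had a read in all 12 NICD libraries. Spearman's rho between the pooled levels in NICD and EV was 0.18 over the 45 genes, which share libraries.

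**Figure D3:**
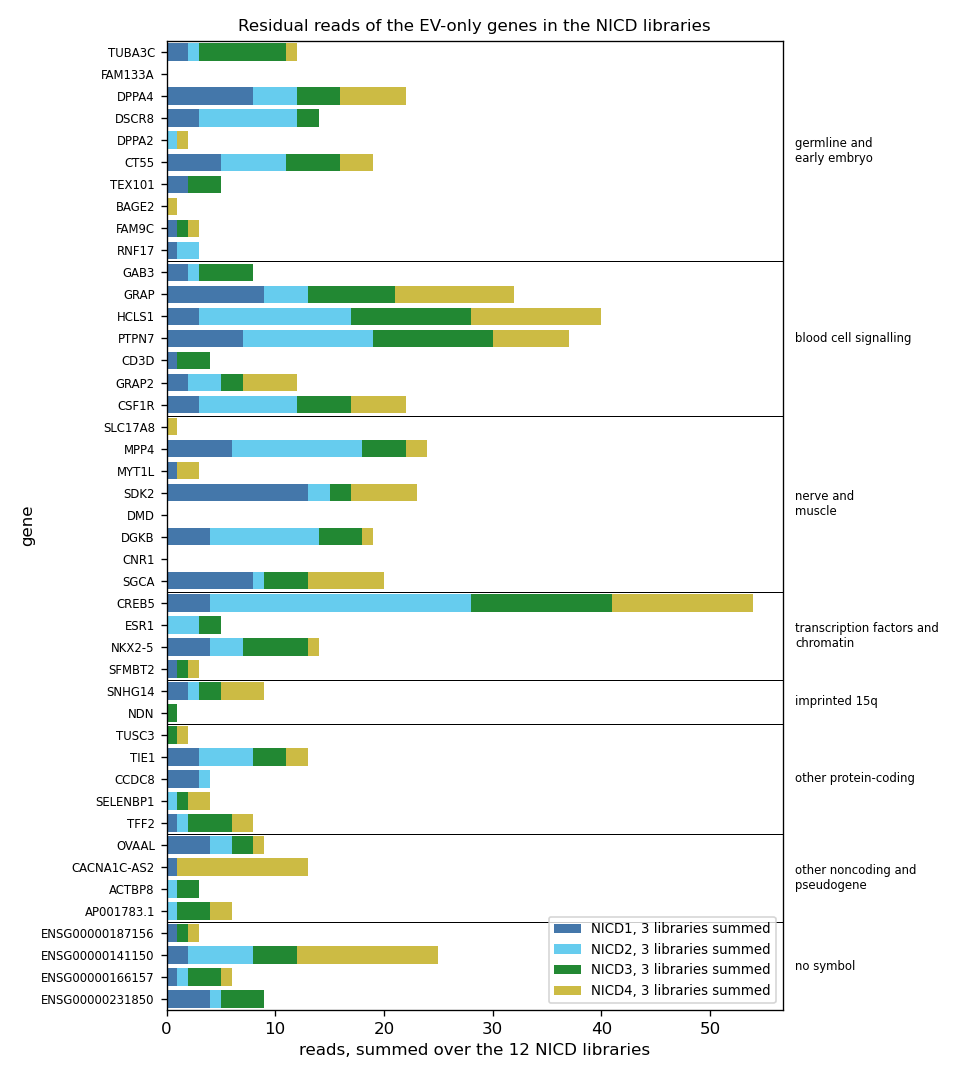
Reads of 44 of the 45 genes summed over the 12 NICD libraries, stacked by NICD group (3 libraries each), with genes grouped by role. CREB5 has the longest bar, 54 reads, and FAM133A, DMD and CNR1 have none.

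Whether residual reads differed among the activated receptors was tested, because the rule set only a shared ceiling for the 12 NICD libraries. Under that ceiling these genes passed the low-count filter through the EV libraries alone, which the F-test left out. The ceiling also caps any difference between NICD groups, so the calls describe these few reads only. Of the 45 genes, 4 were called in limma's F-test over the 4 NICD groups (adjusted p under 0.05 over 15122 genes), against 64.5% of all genes tested, and 8 had an unadjusted p under 0.05. What size of difference these reads could show was not tested. SDK2 had 4, 3 and 6 reads in NICD1, 1, 0 and 1 in both NICD2 and NICD3, and 2, 3 and 1 in NICD4. Its NICD1 libraries were all above the NICD2 and NICD3 libraries, and the limma F-test gave an adjusted p of 0.00463. On the log2(scaled reads + 1) scale the NICD2 minus NICD1 difference of SDK2 was -1.79 ± 0.41 (SE; limma, adjusted p = 0.00844).

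CREB5, in contrast, was lowest in NICD1. It had 5, 10 and 9 reads in NICD2, 3, 3 and 7 in NICD3, 6, 3 and 4 in NICD4, and 1, 1 and 2 in NICD1 (limma F-test, adjusted p = 0.00543). The NICD1 libraries were below all 9 others, and the NICD2 minus NICD1 difference was 1.69 ± 0.36 on the same log2 scale (limma, adjusted p = 0.00566). HCLS1 was likewise lowest in NICD1, at 1 read in each library, against 2, 6 and 6 in NICD2, 3, 2 and 6 in NICD3, and 5, 2 and 5 in NICD4 (limma F-test, adjusted p = 0.0357). ENSG00000141150, an identifier on chromosome 17 with no symbol (34058679 to 34070540), had 4, 5 and 4 reads in NICD4, against 2, 1 and 1 in NICD3, 2, 0 and 4 in NICD2 and 1, 1 and 0 in NICD1 (limma F-test, adjusted p = 0.0201). The calls of SDK2 and CREB5 held under every alternative run, whereas HCLS1 lost its call without any 1 of 7 NICD libraries (adjusted p up to 0.0925) and ENSG00000141150 without NICD4 replicate 1 or 3 (0.0593 and 0.0712), all in limma. Without NICD4 replicate 3, 2 genes were called. All these runs reuse the same few reads, so no support for a difference between receptors is drawn from them.

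By pairs, limma called 3 of the 45 genes between NICD4 and NICD3 (47.2% of all genes tested), 6 between NICD4 and NICD2 (62.2%) and 4 between NICD4 and NICD1 (23.8%). It called 0 between NICD3 and NICD2 (13.1%), 1 between NICD3 and NICD1 (5.14%) and 2 between NICD2 and NICD1 (33.2%). Without NICD4 replicate 1, whose labels conflict, limma called 1 of the 45 genes between NICD4 and NICD3 (33.8% of all genes), 3 between NICD4 and NICD2 (54.3%), 3 between NICD4 and NICD1 (14.0%) and 3 between NICD2 and NICD1 (42.3%). CACNA1C-AS2, an antisense transcript of a calcium channel gene, had 0, 8 and 4 reads in the NICD4 libraries, 1 read in NICD1 and 0 in NICD2, NICD3 and the other NICD1 libraries. Its F-test was not called (limma, adjusted p = 0.0544), but it was called higher in NICD4 than in NICD3 and NICD2 (limma, adjusted p = 0.0305 and 0.0225), by 2.04 ± 0.70 on the log2(scaled reads + 1) scale in each case. Its NICD4 reads came from replicates 2 and 3 only, and without replicate 1 both differences were 3.11 (limma, adjusted p = 0.000889 and 0.000368). Leaving out the NICD4 library with no read was bound to enlarge them, so no support is drawn from these values. In EV it had 15.2, 10.8 and 11.6 CPM, and its partner CACNA1C averaged 0.0392 CPM in NICD and 1.55 CPM in EV.

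Genes close to the limits of the rule had much the same values on either side. Just inside the ceiling lay CACNA1C-AS2, CREB5, HCLS1, GRAP and ENSG00000141150, whose highest NICD values were 0.487, 0.451, 0.43, 0.365 and 0.344 CPM. Just outside lay AC018467.1 (0.501 CPM), the muscle creatine kinase gene CKM (0.504 CPM, with 17.1 CPM on average in EV), TENM1 (0.534 CPM), MROH2A (0.545 CPM) and ANGPTL2 (0.548 CPM). Just inside the EV minimum lay TFF2, ENSG00000231850, SELENBP1, RNF17 and NDN, with lowest EV values of 5.05 to 5.56 CPM. Outside it came ST8SIA1, ST8SIA6-AS1, the interleukin receptor gene IL23R, the synaptic gene NLGN4X and SMARCA2, at 4.93, 4.90, 4.55, 4.49 and 4.37 CPM. NLGN4X had no read in NICD.

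The same limits turned round found little. For each of the 4 NICD groups, 0 genes had at least 5 CPM in its 3 libraries and under 0.5 CPM in the other 12, out of 8867 to 9707 genes at that minimum. A single gene, COBL, had at least 5 CPM in all 12 NICD libraries and under 0.5 CPM in the 3 EV libraries, with means of 13.8 CPM in NICD and 0.293 CPM in EV. COBL, an actin nucleator, was 1 of 8496 genes at that minimum. In the comparison that gave COBL, the groups of libraries differ in number, 12 and 3. For a single NICD group, the other 12 libraries include the other NICD groups, so a gene high in several of them cannot pass. The counts of genes are therefore not like for like.

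Against EV, limma called all 45 genes lower in each NICD group, which the rule made nearly certain and from which nothing is read. Of all 15122 genes tested, limma called 40.7%, 31.1%, 36.8% and 45.2% lower in the order NICD1 to NICD4, so a large part of the transcriptome differed from EV. The median log2 difference of the 45 genes was -6.65, -6.73, -6.65 and -6.70 for NICD1 to NICD4, against -0.11, -0.05, -0.08 and -0.18 over all genes. These comparisons share the 3 EV libraries. The libraries also differed in base composition, with a median of -0.71, -0.36, -0.56 and -0.95 for the tenth of genes lowest in GC, in the same order. For the tenth highest in GC the medians were 0.79, 0.41, 0.62 and 1.09. The 41 genes of the set with a GC value had a median of 47.4% GC (34.6% to 66.2%), against 49.0% for all genes tested. The smallest fall among the 45 was -4.59, a size largely set by the rule. Whether base composition bears on the set was not tested.

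On the chromosomes the genes were scattered over 18. The X chromosome held 6 of the 45 (13.3%) and 3.20% of the genes at the EV minimum, and chromosome 21 held 4 (8.89%) against 0.995%. Those on X are FAM133A, CT55, FAM9C, DMD, GAB3 and ENSG00000231850, and those on chromosome 21 are DSCR8, TFF2, BAGE2 and the identifier overlapping it. Of the left-out genes, 14 of 28 were on X. Within 1 megabase the set held 3 pairs: BAGE2 with the overlapping identifier, DPPA2 with DPPA4, 9.6 kb apart, and CNR1 with ACTBP8, 110 kb apart. GAB3 lay 21.7 kb from CTAG2, a left-out cancer-testis gene, and ENSG00000231850 lay between GAGE12J and GAGE12H, at gaps of 49.8 and 102 kb.

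The genes around the set were also read. The 5 nearest genes on each side that averaged at least 5 CPM in EV and were not among the 73, 388 in all, had a median NICD level of 68.8% of EV, against 70.9% over all 10539 such genes. Of the 388, 27.1% were under 50% of EV and 3 (0.773%) under 10%, against 25.5% and 0.55% of all such genes. Of the single nearest gene on each side, 80 in all, 2 (2.5%) were under 10% of EV. With genes from 1 CPM in EV counted in place of 5 CPM, 20 of 391 neighbours (5.12%) were under 10%, against 2.57% of all such genes. TIE1 stood between EBNA1BP2 at 89.3% and the mitotic gene CDC20 at 154% of EV. HCLS1 lay 2.3 kb from GOLGB1, a Golgi gene at 98.0%. For 27 of the 45 genes the nearest such neighbours were all at 50% of EV or more, and for 5 both were under. Among the 27, TUBA3C and ENSG00000187156 had such neighbours on a single side only. One of those 5 was MPP4, next to TMEM237 at 33.1%, and another was ESR1, between ARMT1 at 33.2% and the overlapping SYNE1 at 11.9%. The 3 neighbours under 10% were PINLYP near TEX101 (7.78%), GAGE2A near ENSG00000231850 (0.288%) and MAGEB16 beyond DMD, which had no NICD read; DMD's other neighbour, TAB3, was at 71.1%.

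**Figure D4:**
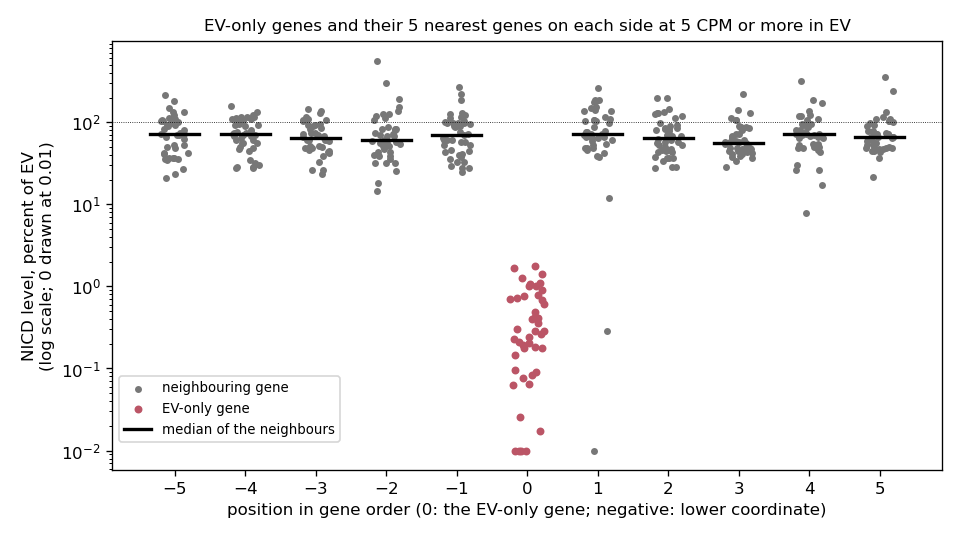
Mean NICD level as a percent of the mean EV level, on a log axis, for the 45 EV-only genes (red, position 0, pooled reads) and the nearest 5 genes on each side with at least 5 CPM in EV (grey), by position in gene order. The neighbours had a median of 68.8% over all positions (black bars give the median at each), and no EV-only gene exceeded 1.79%.

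Promoters were compared for protein-coding genes, of which 27 of 33 (81.8%) have an entry in the RefSeq table. For the whole set 29 of 45 have one (64.4%), which is under 80%, so a comparison over all 45 is void. Before the outermost start of these 27 genes, 3 (11.1%) had a CpG-rich stretch, with at least 50% GC and an observed CpG number at least 0.6 times that expected from base content. The share was 81.7% for 8111 other protein-coding genes at the EV minimum, and 44.7% for the 27305 genes of the table. The 3 were NDN, CNR1 and RNF17. The median stretch held 6 CpG sites in the 27 genes and 22 in the other genes at the EV minimum. When any listed start of a gene could count, the shares were 25.9% and 88.7%, ESR1, TEX101, GAB3 and SFMBT2 being added. This is a description of reference sequence, with no methylation measured.

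**Figure D5:**
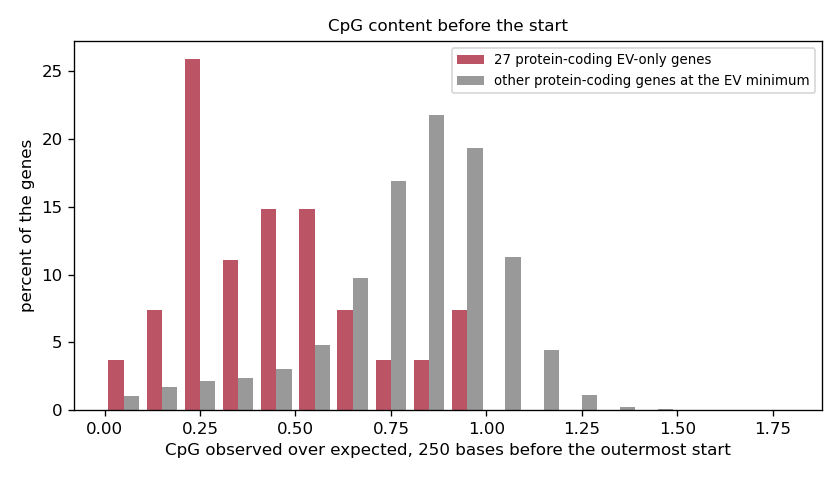
Ratio of observed to expected CpG sites in the 250 bases before the outermost start, as a percent of genes per bin of 0.1, for 27 protein-coding EV-only genes (red) and other protein-coding genes at the EV minimum (grey). The median ratio is 0.41 for the EV-only genes and 0.84 for the others.

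Motifs were searched on both strands of the same stretches. The RBPJ core TGGGAA stood in 7 of the 27 (25.9%), among them DPPA2, CD3D, CREB5, PTPN7 and DMD, against 18.8% of the other genes at the EV minimum and 21.2% of the table. The E2F core GCGGGA stood in 3 (11.1%) against 39.1% and 23.4%, and the E-box CACGTG in 1 (3.7%) against 9.25% and 6.46%. None of the 3 strings contains another, and a match is only a string of letters in this window. The E2F core and the E-box each contain a CpG. Their shares are therefore not independent of the CpG counts, a median of 6 against 22 in the other genes at the EV minimum.

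Other genes of the same kinds were followed through lists. Of 23 tested germline and cancer-testis genes outside both the left-out families and the set, limma called 16, 14, 14 and 16 lower and 2, 4, 5 and 2 higher in NICD1 to NICD4. The median log2 differences of these 23 were -1.11, -1.13, -1.04 and -1.21. All genes tested were called lower in 40.7%, 31.1%, 36.8% and 45.2% and higher in 34.6%, 28.6%, 32.5% and 35.7%. SOHLH2, a germ-cell transcription factor, averaged 0.136, 0.152, 4.08 and 1.14 CPM in NICD1 to NICD4 and 76.1 CPM in EV, so NICD3 and NICD4 held more of it than NICD1 and NICD2. Not all such genes were low: CSAG1 averaged 61.7 to 78.0 CPM in the NICD groups and 66.4 CPM in EV, and PRAME, a cancer-testis antigen, 40.5 to 93.2 CPM in the NICD groups and 82.2 CPM in EV. The meiotic recombinase DMC1 was called higher in all 4 NICD groups, at 0.494 to 1.02 CPM in NICD and 0.125 CPM in EV.

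Of 21 tested imprinted genes other than the member NDN, 12, 9, 11 and 12 were called lower and 6, 7, 5 and 7 higher, with median log2 differences of -0.81, -0.29, -0.28 and -0.84. For this list and the next 2, the shares over all genes were 40.7%, 31.1%, 36.8% and 45.2% lower and 34.6%, 28.6%, 32.5% and 35.7% higher. The neighbour of NDN in the same imprinted stretch, MKRN3, averaged 1.14, 2.40, 1.35 and 1.10 CPM in NICD1 to NICD4 and 3.41 CPM in EV. Of 15 tested DNA methylation enzymes and partners, 9, 6, 9 and 9 were called lower and 4, 3, 4 and 3 higher, with medians of -0.55, -0.35, -0.39 and -0.73. DNMT1, which copies methylation at replication, averaged 84.3, 122, 103 and 52.6 CPM in NICD1 to NICD4 and 186 CPM in EV, and was called lower in NICD1, NICD3 and NICD4. DNMT3B, which methylates new sites, averaged 7.60, 10.8, 7.23 and 7.44 CPM in NICD1 to NICD4 and 18.9 CPM in EV, called lower in all 4. Of 23 transposon and germline silencing factors, 14, 12, 13 and 16 were called lower and 7, 5, 8 and 7 higher (medians -0.48, -0.29, -0.39 and -0.74).

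Of 63 tested homeobox genes other than the member NKX2-5, a cardiac gene, 19, 20, 16 and 23 were called lower and 29, 23, 25 and 26 higher, with medians of 0.29, -0.04, 0.10 and 0.15. Over all genes tested the shares were 40.7%, 31.1%, 36.8% and 45.2% lower and 34.6%, 28.6%, 32.5% and 35.7% higher. Of 24 tested genes reported as methylated in colorectal cancer, other than the member ESR1, 14, 12, 13 and 14 were called lower and 4, 6, 6 and 5 higher (medians -0.66, -0.40, -0.58 and -0.57). EFEMP2, a matrix protein gene, averaged 0.446 to 0.769 CPM in the NICD groups and 22.1 CPM in EV, and VIM, the mesenchymal filament gene vimentin, 0.584 to 2.08 CPM in the NICD groups and 27.5 CPM in EV. RUNX3 went the other way, at 44.4 to 67.0 CPM in the NICD groups and 26.0 CPM in EV, called higher in all 4.

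Cell type markers differed between the NICD and EV libraries too. Beside their calls, all genes tested were called lower in 40.7%, 31.1%, 36.8% and 45.2% and higher in 34.6%, 28.6%, 32.5% and 35.7%, NICD1 to NICD4. The 18 colorectal epithelial markers summed to 10340 to 20850 CPM in the NICD libraries and 2854 to 3310 CPM in EV. Of the 12 tested, 9, 9, 10 and 9 were called higher and 2, 2, 2 and 1 lower in NICD1 to NICD4. GRHL2, an epithelial transcription factor, averaged 3.18 to 9.87 CPM in the NICD groups and 0.0506 CPM in EV, and LGR5, TFF3 and CDX1 were at or near 0 in all groups. The mesenchymal and fibroblast markers summed to 13.1 to 26.8 CPM in the NICD libraries and 68.5 to 80.4 CPM in EV. Of 7 tested, 5 were called lower and 1 higher in each NICD group, and PDGFRA was at 0 in EV. Glial markers summed to 122 to 215 CPM in the NICD libraries and 191 to 225 CPM in EV. Of 6 tested, 1, 2, 3 and 3 were called higher and 3, 3, 2 and 2 lower in NICD1 to NICD4. GLUL, glutamine synthetase, averaged 79.1 to 120.7 CPM in the NICD groups and 137 CPM in EV. Each of the 11 glial markers counted had a read in EV, where AQP4, OLIG2 and SOX2 had at most 4 reads over the libraries. How far these differences go with those of the 45 genes was not tested.

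Markers of germ cells, immune cells and endothelium were read in the same way, and their calls stand beside the same shares over all genes. Germ and pluripotent cell markers summed to 0.28 to 1.30 CPM in the NICD libraries and 25.7 to 30.7 CPM in EV, where DPPA4 alone averaged 27.6 CPM, while NANOG and UTF1 had 0 reads in EV, DAZL 1 and DDX4 3. Immune markers summed to 5.88 to 10.3 CPM in the NICD libraries and 23.5 to 25.1 CPM in EV, and of 4 tested besides the member CD3D, 1, 2, 2 and 2 were called lower and 2, 2, 1 and 2 higher in NICD1 to NICD4. CD3E, the neighbour chain of CD3D, averaged 0 to 0.0931 CPM in the NICD groups and 4.55 CPM in EV, and was called lower in all 4, while LYZ had 0 reads in EV. Endothelial markers summed to 0.397 to 1.505 CPM in the NICD libraries and 1.36 to 2.41 CPM in EV, where CDH5 had 1 read and KDR 0, although TIE1 averaged 20.7 CPM in EV.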

How the data were processed

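Polyadenylated RNA of 15 libraries, 3 in each of 5 groups, was analysed from 1 deposited table. Its values are log2 of the reads per gene plus 1, per the file headers. Undoing the logarithm gave whole reads within 0.001 for 100% of values, with 11630195 to 27704492 reads per library. TopHat2 2.0.6, HTSeq and GRCh37 are named in the submitters' processing notes, with no settings. Gene positions are GRCh37, and names, types and exon lengths come from GENCODE 29.

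CPM is the reads of a gene over the column sum. Tests used limma 3.58.1 in R 4.3.3 on log2(scaled reads + 1), with trimmed-mean scaling, a trended robust prior and Benjamini-Hochberg adjustment over 15122 genes. The plan allowed for whole counts, but the table's unit is log2, which limma takes. The F-test used the 12 NICD libraries and the EV comparisons all 15. Tests were two-sided, with calls at an adjusted p under 0.05. The fit was checked on simulated data. Where a NICD level was 0, the floor was 3 reads over the 12 libraries, and intervals are exact at 95%, for counting error only.

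Every member may be named. Values in each library were meant for the 12 members highest per exon length in EV, those with no NICD read or the 5 highest NICD sums, those called between NICD groups, and those next to the limits. Genes of lists are named as examples. Values of 1 member and of a few other genes are not reported here. The members, role groups and 12 gene lists were chosen with earlier results of these data known. Same-numbered replicates did not deviate together (correlations -0.43 to 0.363, median 0.052, 30 pairs), so numbers pair no samples. NICD2 replicates 1 and 3 were the closest libraries (mean chi-square per gene 1.28, other pairs 2.46 or more) and were kept as 2 samples. Alternatives tried were other scalings, limits, pseudocounts, filters, weights, a replicate block and leaving out each library.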

Additional observations from a re-analysis of the deposited data

Results flagged for a closer look

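Of the 45 genes, 4 had residual reads that differed between the NICD groups in limma's F-test over the 12 NICD libraries. Of all 15122 genes tested, the same test called 64.5%. SDK2, the synaptic adhesion gene, had 13 reads in NICD1, 2 in both NICD2 and NICD3, and 6 in NICD4 (adjusted p = 0.00463). CREB5, the CREB-family activator, had 4 reads in NICD1, 24 in NICD2 and 13 in both NICD3 and NICD4 (limma, adjusted p = 0.00543). HCLS1, the blood-cell actin-binding gene, had 3, 14, 11 and 12 reads from NICD1 to NICD4 (limma, adjusted p = 0.0357). ENSG00000141150, which has no symbol, had 2, 6, 4 and 13 reads from NICD1 to NICD4 (limma, adjusted p = 0.0201). NICD1 was the highest group for SDK2 and the lowest for the other 3. All 4 passed the low-count filter through the EV libraries alone, and the ceiling of the rule caps such differences.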

How the results depend on the processing

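The number of EV-only genes depends on the limits: 120 genes pass with an EV minimum of 2 CPM, 19 with 10 CPM and 73 with no symbol left out. It was 34 with either other scaling, all 34 among the 45, since trimmed-mean scaling puts EV levels at 0.799 to 0.808 of plain CPM, and 45 to 49 with 1 library left out. Of the 45 genes, 8 were called between NICD groups when all 15 libraries set the spread, and 2 to 5 with 1 library left out, 2 of them without NICD4 replicate 3. In limma, HCLS1 was not called with voom weights (adjusted p = 0.0653), nor were HCLS1 and ENSG00000141150 without a filter (0.0926 and 0.0764), over ranges of 0.00486 to 0.0925 and 0.00729 to 0.0712 with 1 library left out. SDK2 stayed between 0.00463 and 0.0147 and CREB5 between 0.00172 and 0.0195 with 1 library left out. With the replicate block, 4 of the 45 genes and 9304 genes in all were called between NICD groups, so the paired fit changed no count by over 1.5 times. The median summed NICD level was 2.56 CPM, 2.22 CPM without the member with the most NICD reads. Without NICD4 replicate 1, chosen after seeing the data, the genes of the set called by pairs went to 1 for NICD4 against NICD3, 3 for NICD4 against NICD2 and 3 for NICD4 against NICD1, 1 for NICD3 against NICD1, 0 for NICD3 against NICD2 and 3 for NICD2 against NICD1. The 45 genes had a median of 8 reads over the 12 NICD libraries, and the size of difference this depth could show was not tested.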
